A study of Boehmeria nivea with 18 samples.

Results

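In the bark of ramie (Boehmeria nivea, cultivar Zhongzhu 1), 202 predicted miRNAs were counted beside 177 miRNAs of known families, so that 202 of the 379 mature miRNAs listed were of the predicted kind. The predicted miRNAs were chosen as all miRNAs whose identifier begins with novel_mir, and an identifier missing from a library was counted as 0. Small RNAs were sequenced from 3 replicates of bark of the middle part of the stem (MPS), in which secondary walls of the fibers thickened, and from 3 replicates of bark of the top part (TPS), in which they had not begun to. Neither the sample labels nor the methods name a treatment, and all plants were of the same cultivar. Each sample pooled bark of 5 plants, and the sample labels give an age of 40 days, while the methods of the study give a younger age. The methods call the replicates biological, while the labels do not tell which plants went into each. Libraries held 3363754 to 5851164 tags assigned to mature miRNAs. Values are tag counts and TPM, which here is the count of a small RNA per 1000000 tags of its library, not divided by length.

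Plant miRNAs are cut as a duplex from the stem of a hairpin-shaped precursor by a Dicer-like enzyme, and one strand guides an Argonaute protein to complementary transcripts. Bases near the 5′ end of the miRNA, the seed, weigh heavily in the pairing. Conserved families such as miR159, miR166, miR171, miR172, miR319 and miR396 act largely on transcription factors of growth and development, while miRNAs that occur in a single lineage are usually less abundant, and their targets are often not known. A prediction from sequencing rests on tags that stack on one arm of a foldable locus, and fragments of other RNAs can stack in the same way.

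The sequences below are those on which the results turn, in DNA letters as the study listed them, from 5′ to 3′, with the seed (bases 2 to 8) in capitals. The most abundant predicted miRNAs with a listed sequence were the following 10.
novel_mir136: gAGAGTAGtactaggatgggtg
novel_mir152: cCTACATTgttccatcgaccaga
novel_mir130: aATTGTAGgaatgggcggtttgggatgaaa
novel_mir186: gGCTTAGCcagcgacacgtgcctttgg
novel_mir178: gTAACTGCcgactcattcacacaagc
novel_mir84: gGAAGCCTttgaggagagtggactg
novel_mir7: gCTGGTTCgattccggcaggtcggatata
novel_mir133: aGCTGCTGactcgttggttca
novel_mir187: gCTGGTATgatcgcacccgcaagtt
novel_mir93: aTTGACGAggcctgttcgggagaggtagca

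Of those with an unadjusted p under 0.05 between the sections, the next 6 had more tags in MPS.
novel_mir3: cCGGCGCGgcatcatcaagattcacaa
novel_mir147: gCCGCGCCaatatcactttcg
novel_mir168: cTGTCTAAagaaatgacaacagaga
novel_mir96: cACTTCTGacactttctttttccta
novel_mir195: tTGCCAAAggagatctgctcagcaa
novel_mir118: gTGGCAATtgtattatacagcttttggcaa

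The last 6, with an unadjusted p under 0.05 as well, had fewer tags in MPS.
novel_mir88: tGGCTATTgtaccagttgaagattttgtc
novel_mir112: cGTGTGATattttcagttgcggtatgtat
novel_mir172: gGAGGCAGagagagcctca
novel_mir189: aAGCGCCAgacggaccaccaaacg
novel_mir68: aTGCATCGtgcgtctgacgct
novel_mir4: aGCTCAGGagggatagcgccgt

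The predicted miRNAs were longer than those of known families. A sequence was used for 198 of the 202, and their lengths ran from 19 to 30 bases with a median of 27. Of these, 37 (18.7%) had 20 to 22 bases, 27 had 23 to 24 and 129 (65.2%) had 25 to 30, with 46 at 30 bases. Among 168 miRNAs of known families with a sequence, the median was 21 bases, 152 (90.5%) had 20 to 22 bases and none had more than 24. The first base, which in plants bears on the Argonaute that takes up a miRNA, was U in 46 of 198 predicted miRNAs (23.2%) and in 97 of 168 of known families (57.7%). G was the most frequent first base of the predicted ones, with 59. These are counts over the lists, with no test.

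The predicted precursors lay on 116 scaffolds, 118 on the plus and 84 on the minus strand. Scaffolds and positions are given as deposited, and no gene annotation was used, so that exons and introns around the loci are not given. Of the precursors, 189 were listed whole, with 60 to 357 bases (median 165). End minus start of a locus equalled the length of the precursor in 189 of 189, so that one end of the deposited interval is not counted. When the precursors were folded by RNAfold, the mature sequence paired with a single opposite arm, with at most 5 unpaired bases, in 77 of 189 predicted precursors (40.7%) and in 119 of 168 of known families (70.8%). The same with a mature length of 20 to 24 bases was met by 28 predicted precursors (14.8%) and by 109 of known families (64.9%). Because the predicted sequences were longer, the length condition and the fixed limit of 5 unpaired bases both weigh more on them. A median of 75.9% of the mature bases was paired in the predicted precursors and 87.6% in the known ones. All known precursors were windows of 300 bases, so that folding energies of both kinds cannot be set side by side. The shares of paired sequences bear the same limit. The letters GTTCGA, which occur in the T-loop of many tRNAs, were searched on both strands and found in 21 of 189 predicted precursors (11.1%), against 10 of the 168 longer known windows (5.95%). Within mature sequences they were found in 3 of 198 predicted miRNAs, among them the abundant novel_mir7, and in 2 of 168 of known families.

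Together, the predicted miRNAs held 2.78 to 3.90% of the tags of a library. Their share of miRNA tags was 21.3, 28.0 and 22.1% in MPS replicates 1 to 3, against 24.2, 20.9 and 22.8% in TPS replicates 1 to 3. These shares overlapped between the sections (two-sided exact permutation test, p = 0.8, where 0.1 is the smallest p that 3 against 3 libraries allow). Summed TPM were 37281 ± 2021 in MPS and 31355 ± 4582 in TPS (SD, n = 3 each, exact permutation p = 0.2). Each MPS sum exceeded the TPS sum of the same replicate number, where an exact paired sign-flip test gave p = 0.25, the smallest that 3 pairs allow. In bark as a whole, fewer cells of a type and less RNA per cell cannot be told apart. Of the 202, 179 (88.6%) were listed in all 6 libraries, against 150 of 177 of known families. The median of their mean TPM was 15.7, against 7.38 for known families. Under 1 mean TPM were 1 of 202 predicted miRNAs and 51 of 177 known ones. At least 100 TPM were averaged by 34 of 202 and 41 of 177, and at least 1000 TPM by 7 and 12. While the lowest listed count of a known miRNA was 1, that of a predicted one was 10. A predicted miRNA absent from a library may thus have had a few tags there, and the medians of both kinds are not set at the same floor.

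A few sequences made up most of the level. The 2 most abundant held 40.5% and the 12 most abundant 76.2% of the summed mean TPM, 34 of the 202 averaged at least 100 TPM and 7 at least 1000. By length, members of 20 to 22 bases summed to 8873, 13085 and 12107 TPM in MPS, against 7443, 9155 and 6382 TPM in TPS, and the sections overlapped, although MPS was higher in each of the 3 same-numbered pairs (paired exact p = 0.25, unpaired exact permutation p = 0.2, 0.3 after adjustment over 3 length classes). Members of 23 to 24 bases summed to 8517, 10429 and 7702 TPM in MPS, against 6078, 6330 and 5548 TPM in TPS, with no overlap (exact permutation p = 0.1, the smallest possible, adjusted 0.3). Both classes were led by a single sequence each. Without novel_mir136 the class of 20 to 22 bases averaged 2336 TPM in MPS and 2170 TPM in TPS, and without novel_mir152 the class of 23 to 24 bases averaged 813 TPM in MPS and 788 TPM in TPS. Members of 25 to 30 bases averaged 14763 TPM in MPS and 15655 TPM in TPS (exact permutation p = 0.7, adjusted 0.7). The sign of this difference turned when novel_mir130, MPS replicate 2 or TPS replicate 1 was left out. In the plot by length the highest levels stand at 22, 23 and 30 bases, and at 24, 25, 28, 29 and 30 bases replicate 1 was the highest library of both sections.

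**Figure D1:**
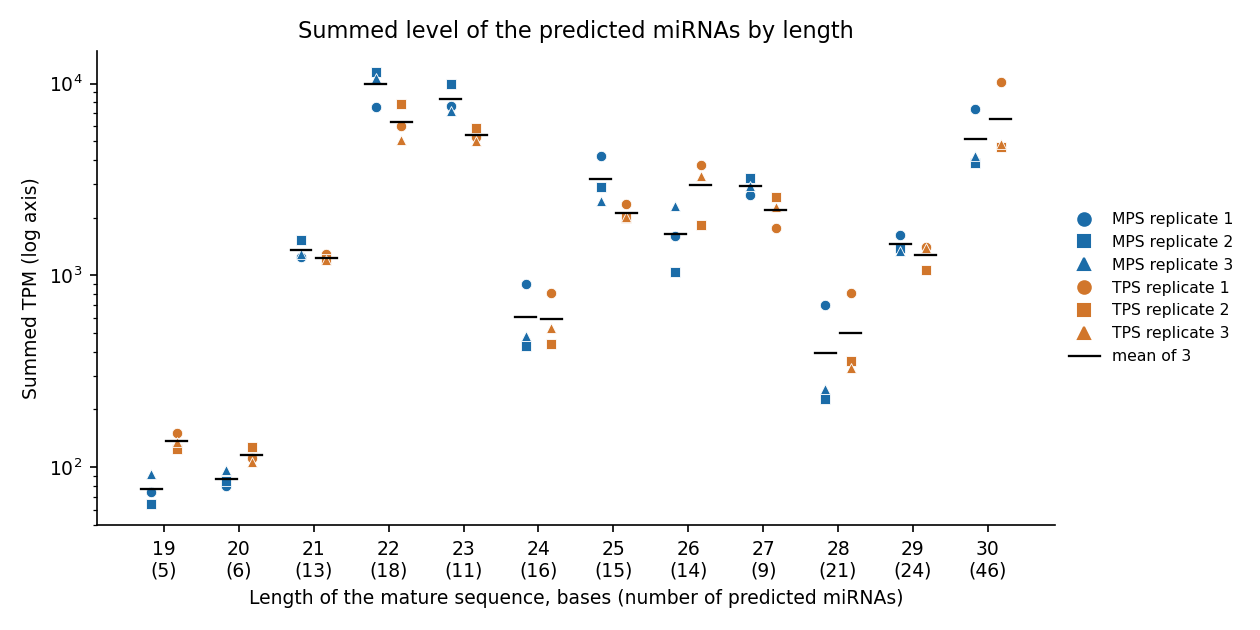
Summed TPM (log axis) of the predicted miRNAs by length of the mature sequence in bases, with the number of miRNAs of each length in parentheses. Points are libraries, MPS left of TPS, and bars are means of 3. Lengths of 22 and 23 bases averaged 9909 and 8279 TPM in MPS, against 6306 and 5393 TPM in TPS, and of 30 bases 5150 TPM in MPS against 6576 TPM in TPS.

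The most abundant predicted miRNA was novel_mir136, of 22 bases, on the plus strand of scaffold 5 (1871230 to 1871404). It had 6306, 10683 and 10068 TPM in MPS, against 5069, 7140 and 4260 TPM in TPS, and the sections overlapped, with MPS the higher in each same-numbered pair. Next was novel_mir152, of 23 bases, on the plus strand of scaffold 5918 (258 to 555). It had 7368, 9819 and 7023 TPM in MPS, against 5052, 5712 and 4829 TPM in TPS, so that its MPS libraries all lay above its TPS libraries. The log2 fold changes of MPS over TPS were 0.73 (SE 0.40) for novel_mir136 and 0.65 (SE 0.31) for novel_mir152, with adjusted p of 0.37 and 0.29 in edgeR's quasi-likelihood test. Tags assigned to rRNA moved with both: they were at 12437.5, 17054 and 12621.5 TPM in MPS, against 7785, 10060 and 7842 TPM in TPS, and replicate 2 was the highest library of its section for rRNA, novel_mir136 and novel_mir152 alike. Neither sequence was compared with rRNA sequences, so that whether these tags are fragments of rRNA was not tested. In the folded precursors, 12 of the 22 bases of novel_mir136 and 16 of the 23 bases of novel_mir152 were paired. Both precursors are shown because these 2 loci carry the largest levels, with the mature sequence in capitals.
novel_mir136 precursor: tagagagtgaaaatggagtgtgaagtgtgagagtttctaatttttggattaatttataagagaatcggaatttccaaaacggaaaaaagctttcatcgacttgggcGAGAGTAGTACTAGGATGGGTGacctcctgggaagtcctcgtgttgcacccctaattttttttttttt
novel_mir152 precursor: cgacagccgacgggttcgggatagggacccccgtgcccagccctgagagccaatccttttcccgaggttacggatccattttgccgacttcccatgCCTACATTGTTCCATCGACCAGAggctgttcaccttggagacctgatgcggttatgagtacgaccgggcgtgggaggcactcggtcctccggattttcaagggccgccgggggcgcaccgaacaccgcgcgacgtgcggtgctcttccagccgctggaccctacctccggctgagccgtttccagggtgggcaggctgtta

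Of the other 10 abundant members, 8 had a sequence, of 25 to 30 bases except for novel_mir133 with 21. Within same-numbered pairs, MPS was higher in all 3 for novel_mir7, novel_mir79, novel_mir84, novel_mir186 and novel_mir187. It was lower in all 3 for novel_mir130, novel_mir178 and novel_mir93. Novel_mir130, of 30 bases, had 3213, 1234 and 1706 TPM in MPS, against 5641, 1803 and 1930 TPM in TPS, and was highest in replicate 1 of both sections. Novel_mir84, of 25 bases, had 2777, 1655 and 1387 TPM in MPS, against 1218, 1023 and 1111 TPM in TPS, with no overlap (log2 fold change 0.82, SE 0.35, adjusted p = 0.26). Novel_mir178, of 26 bases, had 735, 410 and 1633 TPM in MPS, against 2735, 1204 and 2588 TPM in TPS, and overlapped. Novel_mir186 had 1739, 2301 and 2207 TPM in MPS, against 1330, 2118 and 1865 TPM in TPS, and overlapped. Novel_mir7 had 1014, 1001 and 930 TPM in MPS, against 785, 579 and 868 TPM in TPS, so that the MPS libraries were the higher ones. Novel_mir187 had 719, 720 and 560 TPM in MPS, against 575, 383 and 381 TPM in TPS, while novel_mir93 had 541, 334 and 418 TPM in MPS, against 652, 429 and 610 TPM in TPS, and both overlapped. For novel_mir79 and novel_mir124 no sequence was used. Novel_mir79 had 1843, 1013 and 909 TPM in MPS, against 1186, 800 and 843 TPM in TPS, and novel_mir124 had 1496, 574 and 728 TPM in MPS, against 1335, 741 and 773 TPM in TPS, with replicate 1 highest in either section.

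**Figure D2:**
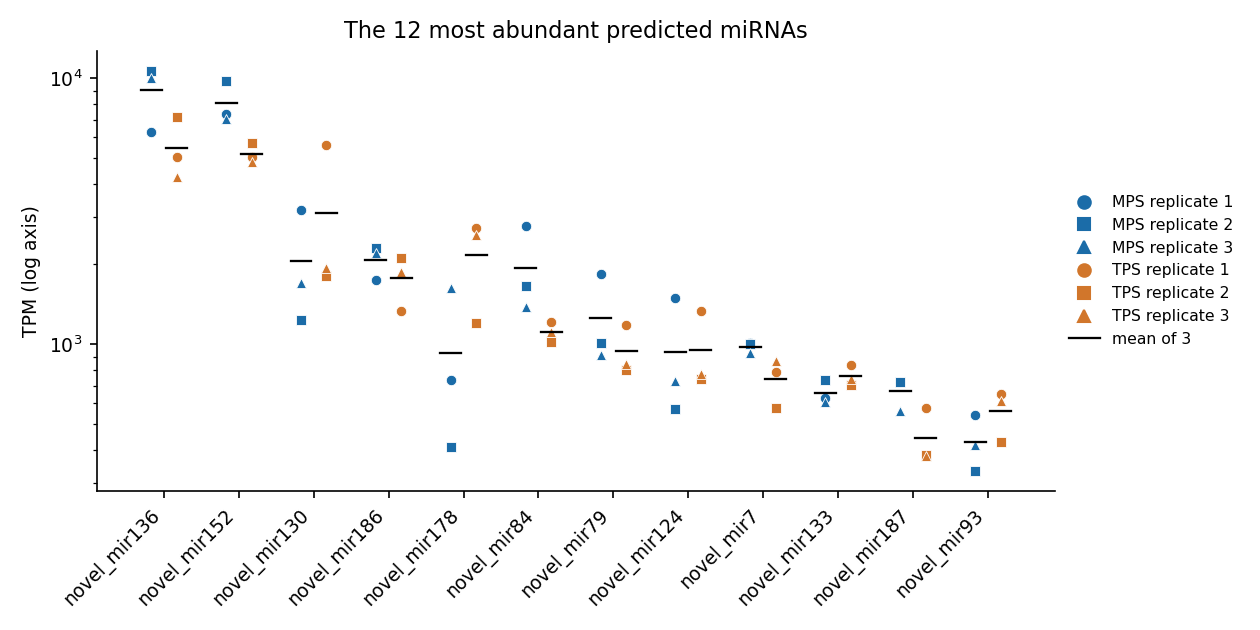
TPM (log axis) of the 12 most abundant predicted miRNAs in each library, MPS left of TPS, with bars at the means of 3. Novel_mir152 lies between 7023 and 9819 TPM in MPS, above its 4829 to 5712 TPM in TPS, while novel_mir130 is highest in replicate 1 of both sections, at 3213 TPM in MPS and 5641 TPM in TPS.

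To find predicted miRNAs that differed between the sections, counts of all mature miRNAs were fitted together by edgeR, and 329 of 379 passed the filter on low counts, 189 predicted ones among them. None of the 189 passed an adjusted p of 0.05 with at least a 2-fold change in edgeR's quasi-likelihood test, and neither did any of the 329 (0%). In counts simulated at a dispersion of 0.5, beside 0.523 here, this fit called 3 of 30 miRNAs changed by 2 on the log2 scale. It called 24 of 30 changed by 4, so that a lack of calls does not mean a lack of difference. An unadjusted p under 0.05 was reached by 26 of the 189, 9 higher and 17 lower in MPS, while 17.9% of all miRNAs tested reached it (9.73% higher and 8.21% lower). The MPS and TPS libraries did not overlap for 57 of the 189, 11 above and 46 below, beside 30.4% of all tested (12.2% above and 18.2% below). The log2 fold changes of the predicted miRNAs ran from -2.43 to 2.87 with a median of -0.46, against a median of -0.19 over all tested, and 127 of the 189 were negative. With size factors of the RLE kind in place of TMM, the median of all tested was -0.08 and that of the predicted ones -0.35, so that their distance stayed about the same. DESeq2 called 6 predicted miRNAs higher and 10 lower, beside 14.3% of all tested (8.21% higher and 6.08% lower). On log2(TPM + 0.5), limma made 1 call among them, higher in MPS, and none below, beside 2.74% (1.52% higher and 1.22% lower). When replicate number entered as a block, none was called, and 79 of the 189 predicted miRNAs had an unadjusted p under 0.05, 17 higher and 62 lower, beside 37.7% of the 329 miRNAs of both kinds (15.2% higher and 22.5% lower). With replicate 1 against the others as a term, 4 were called higher and 9 lower, beside 9.42% of all tested (4.26% higher and 5.17% lower). Of these 13, 9 were also among the DESeq2 calls: novel_mir3, novel_mir147 and novel_mir168, which were higher in MPS, and novel_mir15, novel_mir88, novel_mir112, novel_mir119, novel_mir155 and novel_mir189, which were lower.

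**Figure D3:**
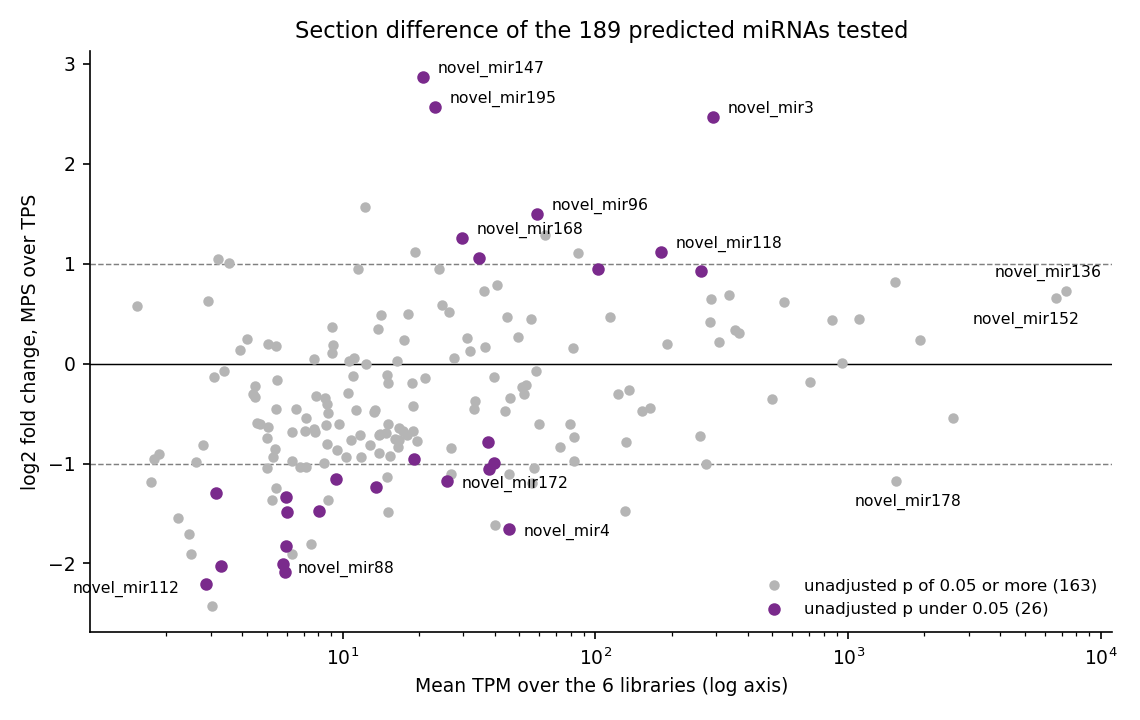
log2 fold change of MPS over TPS from edgeR against mean TPM over the 6 libraries (log axis) for the 189 predicted miRNAs tested, 1 point each. Dashed lines mark 2-fold, and dark points, 26 in number, stand for an unadjusted p under 0.05. More points lie below 0 (127 of 189), while novel_mir147, novel_mir195 and novel_mir3 stand highest among the dark ones at 2.87, 2.57 and 2.47.

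Of the members higher in MPS, novel_mir3 had the lowest p. It had 628, 534 and 317 TPM in MPS, against 104, 78.4 and 89.2 TPM in TPS. Every MPS library lay above every TPS library, with a log2 fold change of 2.47 (SE 0.38, adjusted p = 0.11 in edgeR, between 3.6e-07 and 0.44 in the other fits). Novel_mir147 had 31.3, 35.5 and 41.7 TPM in MPS, against 11.2, 1.59 and 3.19 TPM in TPS. Its sections did not overlap either, with TPS replicate 1 the highest of the TPS libraries, and the log2 fold change was 2.87 (SE 0.72, adjusted p = 0.13). Without TPS replicate 1 it was 4.01 (adjusted p = 0.030 in edgeR), and it was the 1 predicted miRNA called in that fit, beside 1.48% of all tested, which were all higher in MPS. Novel_mir168, of 25 bases, had 43.6, 38.7 and 43.4 TPM in MPS, against 14.9, 20.5 and 17.3 TPM in TPS, a narrow spread in both sections (log2 fold change 1.26, SE 0.34, adjusted p = 0.14).

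Further members lay above in MPS with a wider spread. Novel_mir96 had 47.3, 111 and 99.4 TPM in MPS, against 41.7, 30.5 and 22.2 TPM in TPS, and did not overlap (log2 fold change 1.497, adjusted p = 0.17). Novel_mir118 had 162, 337 and 238 TPM in MPS, against 150, 103 and 96.8 TPM in TPS, and did not overlap (1.12, adjusted p = 0.22). Novel_mir170 (133 ± 32.1 TPM in MPS and 70.7 ± 17.2 TPM in TPS, SD, n = 3 each) and novel_mir105 (46.6 ± 15.5 TPM in MPS and 22.6 ± 2.48 TPM in TPS) were likewise apart. Novel_mir195 had 91.1, 8.38 and 18.8 TPM in MPS, against 8.57, 3.37 and 8.41 TPM in TPS, and overlapped. MPS was the higher in each same-numbered pair. This would not hold with TPS replicates 2 and 3 exchanged (8.38 TPM in MPS replicate 2, against 8.41 TPM in TPS replicate 3). For novel_mir195 the size of the difference rested largely on MPS replicate 1. Its log2 fold change of 2.57 was 1.17 at the lowest when 1 library was left out.

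Of members with fewer tags in MPS, novel_mir88, of 29 bases, had 3.22, 1.57 and 1.96 TPM in MPS, against 14.4, 6.70 and 7.07 TPM in TPS, a log2 fold change of -2.01 (SE 0.50, adjusted p = 0.13 in edgeR). Novel_mir112 had 0.41, 1.21 and 1.38 TPM in MPS, against 3.70, 4.27 and 6.27 TPM in TPS (-2.21, SE 0.62, adjusted p = 0.14). Novel_mir189 had 0.66, 1.11 and 2.09 TPM in MPS, against 4.12, 5.79 and 6.02 TPM in TPS (-2.02, SE 0.59, adjusted p = 0.15). In these 3 every MPS library lay below every TPS library. The same held at higher levels for novel_mir172, of 19 bases, which had 14.96, 12.9 and 18.8 TPM in MPS, against 44.6, 32.5 and 31.04 TPM in TPS (-1.18, SE 0.34, adjusted p = 0.15). Its seed equalled that of the known miR162a-5p_1. It also held for novel_mir68, of 21 bases, with 20.3, 23.4 and 30.1 TPM in MPS, against 43.3, 56.3 and 55.1 TPM in TPS (-1.05, adjusted p = 0.21). Novel_mir155 had 5.19, 2.52 and 4.85 TPM in MPS, against 15.8, 9.65 and 10.6 TPM in TPS, and novel_mir119 had mean TPM of 8.08 in MPS and 19.1 in TPS. Novel_mir199, of 22 bases, had 30.4, 27.1 and 24.4 TPM in MPS, against 51.2, 45.3 and 46.9 TPM in TPS, with little spread in either section (-0.78, SE 0.30, adjusted p = 0.24). Novel_mir95, novel_mir161 and novel_mir137 lay lower in each MPS library as well, at log2 fold changes of -0.99, -0.95 and -1.16. The sections of novel_mir15, novel_mir43 and novel_mir56, which were called with replicate 1 as a term, also did not overlap, with mean TPM of 2.25, 17.0 and 4.84 in MPS, against 9.62, 36.9 and 12.7 in TPS. By contrast, novel_mir31, called higher in that fit alone, overlapped (28.1, 8.21 and 8.55 TPM in MPS, against 16.5, 3.59 and 4.39 TPM in TPS).

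Of the 202 predicted miRNAs, 10 shared a precursor with miRNAs of known families and were picked out after their values were seen. They shared precursors or windows with products named miR159, miR171, miR172, miR319, miR390, miR396, miR4414 and miR4995. Counts of short overlapping tags depend on how the authors divided them between names, and a known sequence may stem from other loci too, so that each value below is that of its name. The precursors of novel_mir3 and novel_mir147 are shown with the predicted sequence and 1 known product of the opposite arm in capitals: novel_mir3 at the 5′ end with miR172e-3p at the 3′ end, and miR171e-5p at the 5′ end with novel_mir147 at the 3′ end.
novel_mir3 precursor: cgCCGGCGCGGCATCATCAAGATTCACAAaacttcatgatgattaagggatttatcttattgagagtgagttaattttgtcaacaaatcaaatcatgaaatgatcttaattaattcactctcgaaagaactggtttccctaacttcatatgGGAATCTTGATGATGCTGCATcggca
novel_mir147 precursor: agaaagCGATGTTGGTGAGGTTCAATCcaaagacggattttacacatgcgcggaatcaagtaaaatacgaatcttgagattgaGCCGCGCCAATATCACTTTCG

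Novel_mir3 lay at bases 3 to 29 of the 177 bases of its precursor, on the plus strand of scaffold 1 (4774932 to 4775109), and 18 of its bases were identical to a run of miR172c-5p. The miR172 family acts on AP2-type transcription factors of flowering and phase change in Arabidopsis. On the opposite arm, miR172e-3p (bases 152 to 172) had 21.4, 22.2 and 17.8 TPM in MPS, against 6.52, 4.63 and 4.42 TPM in TPS. Both thus had more tags in every MPS library than in any TPS library, and the predicted 5′ product was more abundant than miR172e-3p in each library.

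Novel_mir147 lay at bases 84 to 104 of a precursor of 104 bases, on the minus strand of scaffold 51 (418426 to 418530). It was shifted by 4 bases against miR171f_3 (bases 80 to 100), which had 5487, 4215 and 6129 TPM in MPS, against 1761, 217 and 363 TPM in TPS. In Arabidopsis, miR171 acts on GRAS transcription factors of the meristem. The opposite arm, miR171e-5p, had 119, 141 and 169 TPM in MPS, against 32.6, 11.9 and 9.47 TPM in TPS. These 3 products were thus higher in each MPS library, and TPS replicate 1 was the highest TPS library of each. Of the further products of this precursor, miR171d_1 averaged 186 TPM in MPS and 31.1 TPM in TPS, and did not overlap. The scarce miR171c_3 (bases 77 to 97) averaged 0.52 TPM in MPS and 0.96 TPM in TPS, and overlapped. At a second miR171 precursor the products differed among themselves as well. Novel_mir122 (bases 69 to 89) had 28.2, 55.3 and 71.7 TPM in MPS, against 28.6, 52.9 and 31.01 TPM in TPS, and overlapped. The opposite arm, miR171o-5p, had 67.3, 117 and 171 TPM in MPS, against 52.7, 35.3 and 22.9 TPM in TPS, so that each MPS library lay above each TPS library, as at the first precursor. Of the products that overlap novel_mir122, miR171b_2 (bases 64 to 84) had 111, 243 and 482 TPM in MPS, against 1646, 3707 and 3777 TPM in TPS, so that its MPS libraries lay below. Those of miR171a_2 lay below as well. By contrast, miR171f-3p, miR171b-3p and miR171b averaged 1689, 325 and 13.4 TPM in MPS, against 1097, 246 and 10.7 TPM in TPS. Each of these overlapped between the sections.

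Novel_mir85 came from a miR159 precursor, a family that acts on GAMYB-type transcription factors in Arabidopsis. It lay at bases 110 to 131, apart from the known product miR159a_3 at bases 163 to 182. It had 417, 391 and 211 TPM in MPS, against 224, 157 and 169 TPM in TPS, with a small overlap (log2 fold change 0.93, SE 0.37, adjusted p = 0.26 in edgeR). MiR159a_3 had 1949, 2142 and 2068 TPM in MPS, against 2863, 2618 and 2189 TPM in TPS, and each MPS library lay below each TPS library. The means of novel_mir85 and miR159a_3 thus lay on opposite sides. A further product of this precursor, miR159a_2 (bases 164 to 183), averaged 117 TPM in MPS and 120 TPM in TPS, and overlapped. Whether the differences of novel_mir85 and miR159a_3 are unequal was not tested. Novel_mir51, at bases 164 to 185 of a miR396 precursor (a family that acts on growth-regulating factors), had 74.7, 41.7 and 34.9 TPM in MPS, against 66.9, 14.1 and 11.9 TPM in TPS. In each section replicate 1 was highest. Novel_mir4, shifted by 1 base against miR390a-5p, had 8.42, 17.5 and 38.1 TPM in MPS, against 57.2, 51.0 and 100 TPM in TPS, a log2 fold change of -1.66 (SE 0.64, adjusted p = 0.24). MiR390a-5p, which in Arabidopsis starts the phased siRNAs that act on auxin response factors, had 61.0, 57.5 and 55.5 TPM in MPS, against 125, 165 and 162 TPM in TPS. Both were lower in every MPS library.

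**Figure D4:**
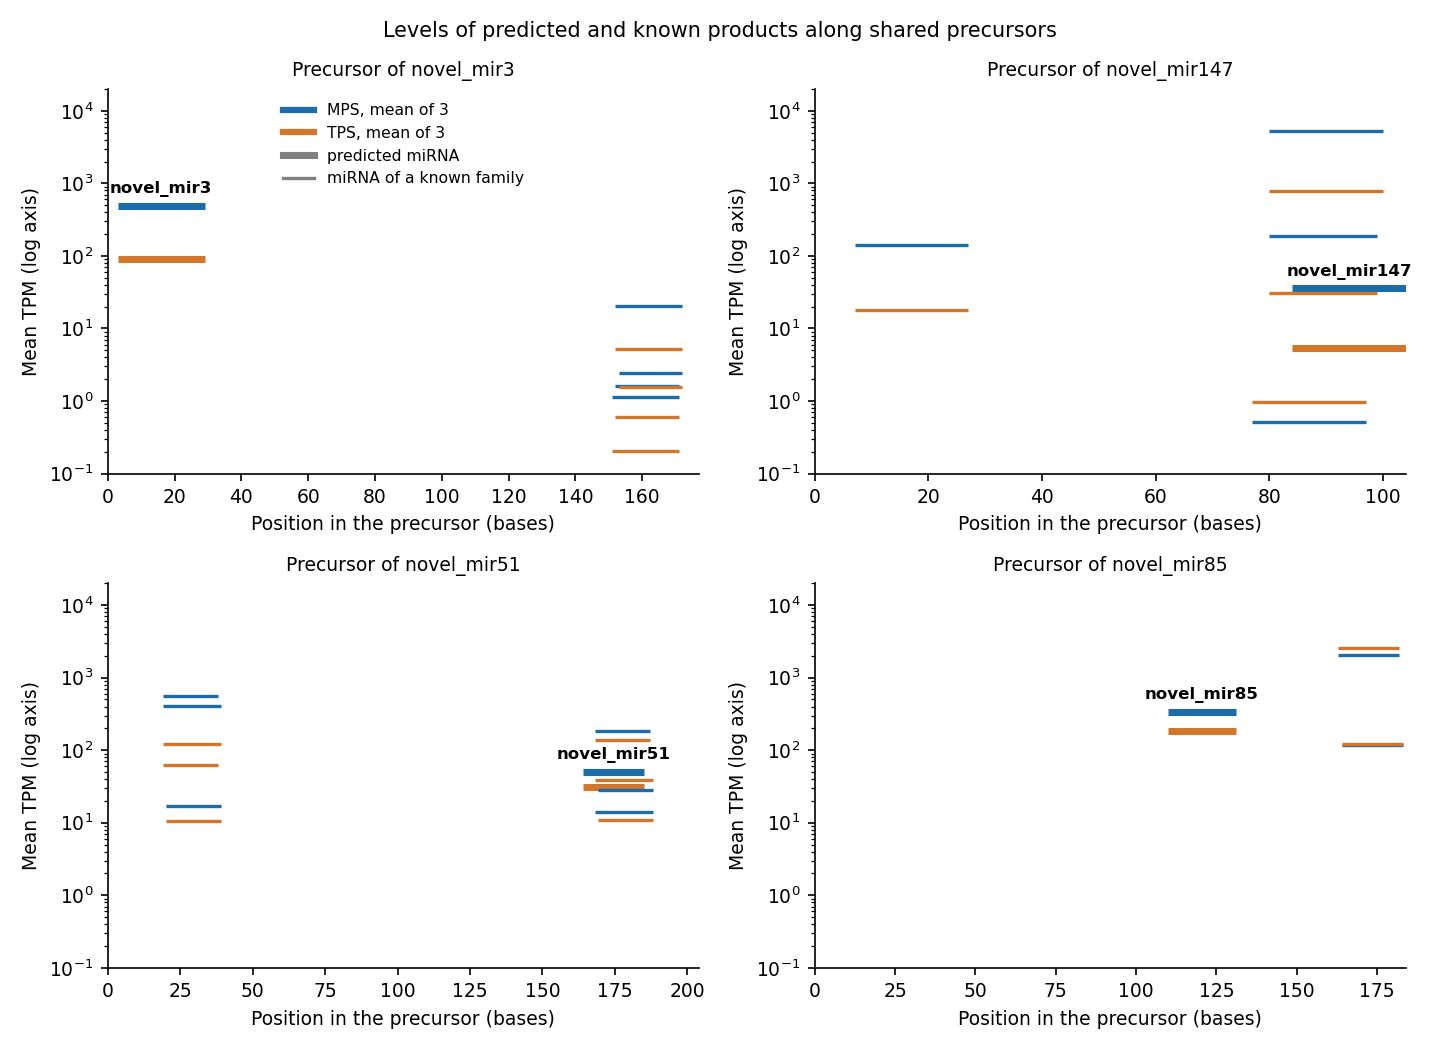
Mean TPM over 3 libraries (log axis) of each product at its position in bases along 4 precursors, with thick lines for the predicted miRNA and thin lines for miRNAs of known families, in MPS and TPS. Novel_mir3 and novel_mir147 averaged 493 and 36.1 TPM in MPS, against 90.7 and 5.33 TPM in TPS, and in novel_mir85 the predicted product and miR159a_3 differ in which section has the higher mean.

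Novel_mir133, of 21 bases on a miR319 precursor, had the same sequence as the known miR4414a-5p, yet both names carried counts. Novel_mir133 had 627, 732 and 605 TPM in MPS, against 833, 705 and 739 TPM in TPS, a narrow range. MiR4414a-5p had 365, 82.2 and 1383 TPM in MPS, against 1106, 33.9 and 805 TPM in TPS. How the authors assigned tags of 1 sequence to 2 names was not checked, and neither value is taken as the level of that sequence. Novel_mir33, also on a miR319 precursor, had 2.78, 15.6 and 10.6 TPM in MPS, against 6.10, 8.35 and 11.6 TPM in TPS. The miR319 family acts on TCP transcription factors in Arabidopsis, and miR319a-3p was found in the precursors of both novel_mir33 and novel_mir133. Novel_mir178, described above, occurred in the 300-base window of miR319c-5p_2, which had at most 1.90 TPM in any library. Novel_mir47, found in the window of miR4995, had 49.2, 22.4 and 6.62 TPM in MPS, against 22.5, 8.90 and 5.98 TPM in TPS, and overlapped.

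Few predicted miRNAs shared sequence with each other. Novel_mir71 and novel_mir179 had a run of 24 bases in common, and had 6.81 to 16.6 TPM and 1.51 to 6.66 TPM in MPS, against 7.11 to 16.7 TPM and 3.19 to 7.43 TPM in TPS. Novel_mir49 and novel_mir151 shared 16 bases. Runs of reverse complement joined novel_mir109 with novel_mir119 (22 bases), novel_mir20 with novel_mir39 (15 bases), novel_mir81 with novel_mir130 (15 bases) and novel_mir30 with novel_mir107 (14 bases). Novel_mir43 also occurred within the precursor of novel_mir50. Loci overlapped in 1 pair, novel_mir11 and novel_mir12, on opposite strands of scaffold 1021 (23526 to 23653 minus and 23529 to 23663 plus). Seeds were shared by novel_mir55 with novel_mir59, by novel_mir24 with novel_mir196 and by novel_mir140 with novel_mir168. They equalled seeds of known miRNAs in novel_mir60 (miR828a_1), novel_mir153 (miR319a-5p_1), novel_mir157 (miR159a_2), novel_mir172 and novel_mir133.

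The replicate 1 libraries stood apart from the others in both sections. Of the 202 predicted miRNAs, 12 had 155 to 17192 counts in both replicate 1 libraries and were not listed in the other 4, while no miRNA of a known family showed this and no predicted one did so in any other pair of libraries. The lowest listed count was 10 for predicted miRNAs and 1 for known ones, so that both kinds are not set at the same floor here. The 12 predicted miRNAs did not pass the filter and were not tested. The most abundant was novel_mir185, with 373 TPM in MPS replicate 1, against 558 TPM in TPS replicate 1. Next were novel_mir135 (241 TPM in MPS, against 384 TPM in TPS), novel_mir157 (390 TPM in MPS, against 155 TPM in TPS), novel_mir114 (375 TPM in MPS, against 158 TPM in TPS), novel_mir117 (320 TPM in MPS, against 124 TPM in TPS) and novel_mir173 (237 TPM in MPS, against 74.7 TPM in TPS). The other 6, novel_mir21, novel_mir44, novel_mir46, novel_mir64, novel_mir70 and novel_mir142, had 4.85 to 81.8 TPM in MPS replicate 1, against 7.56 to 109 TPM in TPS replicate 1. Of those 6 named first, 3 are shown, with the seed in capitals.
novel_mir185: cGACAGACtaggcacgtgaggtttgacaag
novel_mir157: gTGGATTGactctggttcttcaatccatgt
novel_mir114: tATATGAGgtgaaacaatttct

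**Figure D5:**
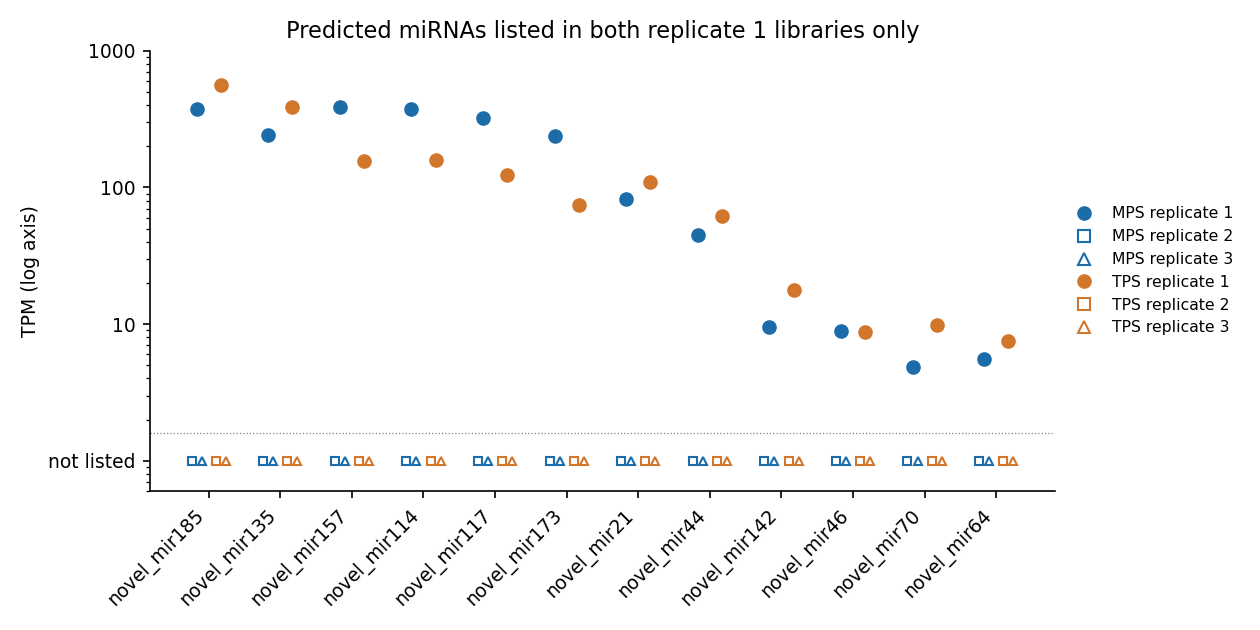
TPM (log axis) of the 12 predicted miRNAs listed in both replicate 1 libraries only, MPS left of TPS. Filled points are replicate 1, between 4.85 and 558 TPM, and open points at the bottom mark the 4 libraries in which each is not listed.

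The reverse was seen for fewer. Novel_mir131 was not listed in either replicate 1 library and had 38.7 and 49.3 TPM in the other MPS libraries, against 55.6 and 57.3 TPM in the other TPS libraries, and novel_mir73 and novel_mir116 showed the same at lower levels. In novel_mir120 the gap was large without being complete, with 264, 0.36 and 0 TPM in MPS, against 114, 1.17 and 1.38 TPM in TPS. Over all 202, both replicate 1 libraries lay above all others for 64 (31.7%) and below all others for 38 (18.8%), against 13 (7.34%) and 11 (6.21%) of the 177 miRNAs of known families. Across the 189 predicted miRNAs tested, log2 levels of MPS replicate 1 correlated with those of TPS replicate 1 at r = 0.94, but with those of MPS replicates 2 and 3 at r = 0.78 and 0.73. MPS replicates 2 and 3 correlated at 0.97. These are correlations across miRNAs, which are not independent. What sets replicate 1 apart is not given by the labels, and its part in the section differences was measured only by the fits with replicate 1 as a term or left out. No predicted miRNA had at least 10 counts in every library of one section and none in the other. The remaining untested one, novel_mir24, had 15 counts in MPS replicate 2 alone.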

How the data were processed

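Small RNA libraries of MPS and TPS bark (3 each) were analysed; transcript and circRNA tables were not used. The deposited counts were made by the authors, who aligned clean tags with miRBase (AASRA) and Rfam (CMsearch) and predicted miRNAs from the rest (PIPmiR); their versions were not found in the sources read. The deposited TPM values were scaled by the authors to the library total, and count over total gives them within 0.005. Tags were not aligned again, so that fragments assigned to a name, or shared between names, could not be checked.

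Counts of all mature miRNAs were fitted by edgeR 4.0.16 (quasi-likelihood test, TMM, filterByExpr, header totals as library sizes) in R 4.3.3, and calls needed a Benjamini-Hochberg adjusted p below 0.05 with a change of 1 or more on the log2 scale in either direction. Standard errors, taken from the fold change and the F statistic, are approximate. DESeq2 1.42.0, limma 3.58.1 (log2 of TPM plus 0.5 or 1), other scalings, filters and libraries left out were alternatives, and the test was tested on simulated data. Sums were compared by exact permutation tests (scipy 1.17.1, Python 3.11.15). Sequences came from the study's sequence table, folded by RNAfold 2.7.2.

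Deviations from the section means correlated at 0.64, 0.36 and 0.35 between same-numbered libraries of the sections, so that the numbers were taken to pair them, although MPS replicate 2 correlated with TPS replicate 3 at 0.37 as well, and replicates 2 and 3 are not told apart by this. Members and lists were chosen with earlier results of these data known. Those named were the 12 most abundant, those of lowest p with at least 10 TPM in the higher section (up to 10 per direction), those called with replicate 1 as a term, those in both replicate 1 libraries only, and those sharing sequence; others were named after their values were seen. The IDs of wall genes that the study names are spelled otherwise than those of the transcript tables, so that the sections were not checked by them.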

Additional observations from a re-analysis of the deposited data

How the results depend on the processing

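No predicted miRNA was called by edgeR with RLE factors, with header totals alone, with the sum of miRNA counts as library size, with other filters on low counts, with the replicate block or with replicates 2 and 3 only. Predicted miRNAs called higher were 6 with DESeq2, 1 with limma at either pseudocount (novel_mir3), 4 with replicate 1 as a term and 0 to 1 with 1 library left out (novel_mir147, without TPS replicate 1). Called lower were 10 with DESeq2, 9 with replicate 1 as a term and 0 with 1 library left out. An unadjusted p under 0.05 was reached by 79 of 189 with the replicate block and by 80 of 189 with replicate 1 as a term. Of all 329 miRNAs tested, 124 and 125 reached it in these fits. With replicates 2 and 3 only, 53 of 189 reached it, beside 92 of all 332 tested. With 1 library left out, 8 to 25 reached it. The lowest were 8 of 201 without MPS replicate 2, beside 40 of all 347 tested, and 10 of 201 without TPS replicate 2, beside 39 of 349. Without TPS replicate 3 it was 11 of 201, beside 42 of 347. The common dispersion was 0.523 in the fit without a block, 0.279 with the block and 0.293 with replicate 1 as a term. The block changed no call.

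The difference of summed TPM at 25 to 30 bases was 182 without novel_mir130, against -892 with it, and ran from -2594 to 1445 with 1 library left out. That of the share of miRNA tags was -0.41 percentage points without novel_mir136, against 1.14 with it, and ran from -0.95 to 2.39 with 1 library left out. The exact paired test on the replicate block gave p = 0.25, the smallest that 3 pairs allow, for the summed TPM of all members. The log2 fold change of novel_mir33, 0.19 in edgeR, was -0.087 and -0.064 with limma, -0.079 with the replicate block, -0.060 with replicate 1 as a term and between -0.31 (without MPS replicate 2) and 0.78 with 1 library left out. That of novel_mir133, -0.18, was 0.0091 with replicates 2 and 3 only and between -0.26 and 1.9e-06 (without MPS replicate 1) with 1 library left out. That of novel_mir124, 0.011, was -0.026 without TMM, -0.097 with limma at either pseudocount, -0.069 with the replicate block, -0.064 with replicate 1 as a term, -0.12 with replicates 2 and 3 only and between -0.37 and 0.34 with 1 library left out. That of novel_mir71, 0.031, was -0.013 without TMM, -0.016 and -0.015 with limma and between -0.32 and 0.50 with 1 library left out. Leaving out 1 library also turned novel_mir130 (-0.54, between -0.89 and 0.17, positive without TPS replicate 1), novel_mir151 (-0.60, between -2.09 and 1.29, positive without TPS replicate 1), novel_mir179 (-0.34, between -0.84 and 0.061), novel_mir30 (-0.49, between -0.83 and 0.16) and novel_mir49 (0.20, between -0.23 and 0.70). Over the 51 named members that were tested, 867 other fits gave 810 with the same direction and call, 29 that gained a call and 28 that turned sign; the causes were not tested. A listed minimum of 10 counts hides lower values.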
